A study of Mus musculus with 20 samples.

Results

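The Btg2 locus was described as all peaks lying in mm9 chromosome 1 from 135955000 to 135995000, a window of 40 kb. It held 149 of the 270514 peaks in the 16 deposited lists. The window was chosen by measured values. It holds a platform of 4460 bp, the second widest in the series, where a platform is the union of total RNA polymerase II (Pol II) and TBP peaks that overlap by at least 1 bp. The width of that platform, its total Pol II and TBP peaks and its H3K4me3 mark are therefore no findings here. They are given as description, as are the ranks of all peaks in the window.

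All samples were CD4+/CD8+ double-positive T cells from the thymus of C57BL/6 mice, taken with magnetic beads against CD8 and then CD4, with no treatment and no altered gene. Chromatin immunoprecipitation and sequencing (ChIP-seq) was done for 15 targets, and FAIRE isolated open chromatin without an antibody. The targets were total Pol II, its serine 5 (Ser5P) and serine 2 (Ser2P) phosphorylated forms, TBP and its TFIID partner Taf1, the general factors TFIIA, TFIIB, TFIIE, TFIIF and TFIIH, the coactivator CBP, the T-cell factor ETS1, and the histone marks H3K4me3, H3K4me1 and H3K36me3. Each target had 1 list. No difference could therefore be set against a spread between animals, and no p-value was computed. Sequencing depth was unknown, and the age of the mice is not given in the sources used here. Other cell types in the sorted cells could not be judged, because gene positions in mm9 were not used here. Areas are the authors' own values and were ranked only within their list, with rank 1 for the highest.

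Btg2 belongs to the BTG and TOB family of anti-proliferative proteins, which bind the CCR4-NOT deadenylase and promote the shortening of mRNA poly(A) tails. It was found as an early response gene, is a target of p53, and in mouse T cells Btg1 and Btg2 are known for keeping the cells quiescent. At an active gene, a preinitiation complex of TBP and general factors assembles with Pol II at the start site. Serine 5 of the Pol II C-terminal repeats is phosphorylated around initiation, and serine 2 as elongation goes on.

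In the RefSeq annotation of GRCm38.p6, Btg2 (gene 12227, NM_007570.2) lies on the minus strand of chromosome 1 and spans 4291 bp. Its neighbours there are the long non-coding RNA gene Gm19497 and, beyond it, Fmod towards lower coordinates, and the long non-coding RNA genes Gm31974 and Gm32039 towards higher coordinates. That build differs from mm9 and no coordinates were converted. The name Btg2 for the platform thus comes from the choice of the window, and which peaks lie at its neighbours' start sites was not tested. If the strand is the same in mm9, transcription of Btg2 would run from right (higher coordinates) to left.

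The promoter is shown because the factors listed at the platform assemble at start sites. RefSeq gives these 250 bases before the start of Btg2 at chr1:134079156-134079405 of GRCm38.p6, minus strand, with motif matches in capitals.
Btg2 promoter: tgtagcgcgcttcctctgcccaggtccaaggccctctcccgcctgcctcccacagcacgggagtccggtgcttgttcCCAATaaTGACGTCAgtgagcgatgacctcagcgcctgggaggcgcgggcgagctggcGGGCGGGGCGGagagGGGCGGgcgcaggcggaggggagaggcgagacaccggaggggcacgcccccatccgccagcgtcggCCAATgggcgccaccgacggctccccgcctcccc
These bases held 27 CG pairs, against a median of 6 over the 32851 RefSeq promoters of the same length, of which 8.56% held as many. GC content was 73.2%. Both strands were searched for 5 motifs. The motif TGACGTCA, known as a binding site of CREB proteins, occurred 1 time, and 1.55% of all promoters held it. GGGCGG, a site bound by Sp1-type factors, occurred 3 times. The match nearest to the start ends 95 bases before it, and the other pair share 1 base. It was held by 32.7% of promoters. CCAAT occurred 2 times, the nearer match ending 30 bases before the start, and 33.8% of promoters held it. TATAAA, the core of the TATA box, was not in this window, and 12.4% of all promoters held it. The ETS-type sequence CCGGAA was not in it either, and 12.0% held it. Shorter or other ETS-type sequences were not searched for.

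Factor and FAIRE peaks in the window fell into 4 clusters when gaps of up to 1000 bp were joined. The cluster at the Btg2 platform ran from 135971281 to 135976670 and held 55 peaks from 11 of the 13 factor and FAIRE lists. To its left lay a gap of 6050 bp, then a middle cluster from 135961921 to 135965230 with 22 peaks from 9 lists. A leftmost cluster from 135955781 to 135960900 held 49 peaks from 11 lists, and was kept apart from the middle one by a gap of just 1020 bp. On the right, 13190 bp away, 3 peaks lay between 135989861 and 135990210, of total Pol II (rank 8518), TBP (rank 15360) and TFIIE (rank 6709). The joining distance was set after the peaks had been seen.

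**Figure D1:**
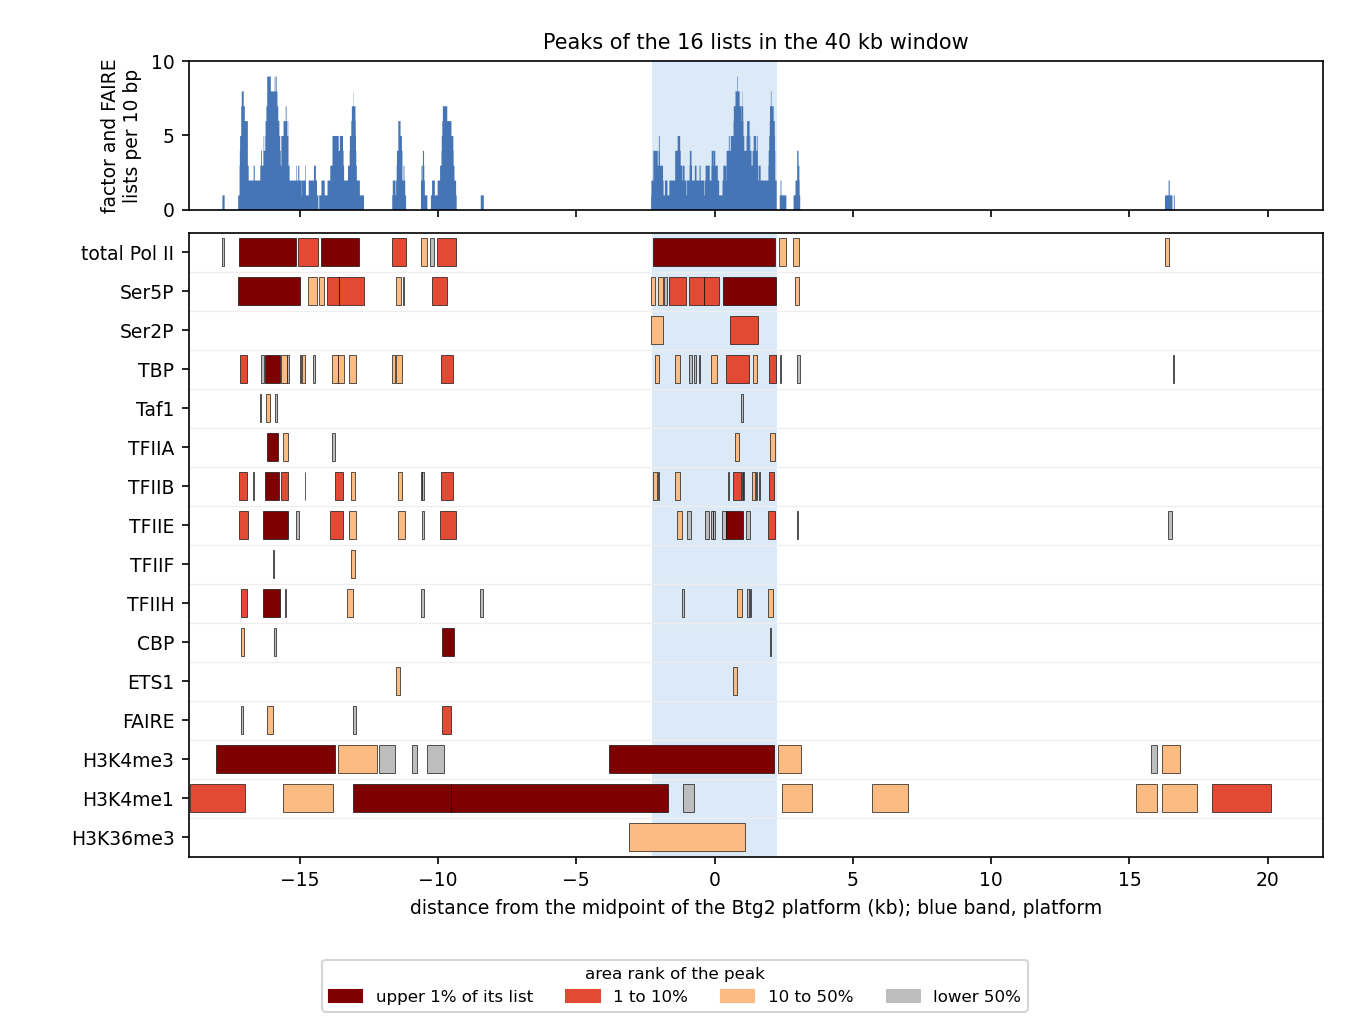
Peaks of the 16 lists in the 40 kb window. The x axis is the distance in kb from the midpoint of the Btg2 platform (blue band), each box is 1 peak coloured by its area rank within its own list, and the upper panel counts factor and FAIRE lists per 10 bp. The platform and the leftmost cluster each reach 9 lists at their fullest points, and all Ser2P and H3K36me3 peaks overlap the platform.

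Many of these peaks stood high in their lists. Of the 149 peaks, 44 (29.5%) were in the upper 10% of their list by area, against 10.0% of all peaks by construction, and 54 were in the lower 50%. In 10 of the 16 lists the highest peak of the window was within the upper 1% of the list. That peak lay at the Btg2 platform for total Pol II, Ser5P and H3K4me3. It lay elsewhere in the window for TBP, TFIIA, TFIIB, TFIIE, TFIIH, CBP and H3K4me1, although the long H3K4me1 peak also reached into the platform. Total Pol II, TBP and H3K4me3 had a part in the choice of the window. Highest peaks were not counted in other windows, and a window with many peaks is more likely to hold a high one.

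The numbers of peaks were set beside those in 33466 fixed genome windows of the same length that held a peak of any list. No such window had as many TFIIE peaks (19) or TFIIH peaks (11) as the Btg2 locus. The most in a fixed window were 18 TFIIE and 9 TFIIH peaks. As many TFIIB peaks (22) were found in 1 window, as many TBP peaks (26) in 3, as many TFIIA peaks (5) in 6 and as many Ser5P peaks (16) in 16. In contrast, the 10 H3K4me1 peaks were matched in 1504 windows and the single H3K36me3 peak in 9904. The Btg2 window was placed around its peaks and the fixed windows were not, so this order favours the locus. Shifted by 20 kb, 1 of the fixed windows held the Btg2 platform and both clusters to its left, and so counted the locus itself. It was the only window with as many TFIIH peaks. It was also among the 2 with as many TFIIB peaks and the 10 with as many TFIIA peaks. No shifted window had as many TFIIE peaks. Not even that with the locus did, since the TFIIE peak of rank 6709 on the right fell outside it. By covered length in place of number, none matched the locus for TFIIE or TFIIH, 1 did for TFIIA, 2 for TFIIB and 4 for Ser5P.

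Total Pol II covered 98.9% of the platform in 1 peak. It ran from 135971361 to 135975770, spanned 4410 bp and ranked 8 of 18037 by area, with 0.0444% of the list at or above it. By area per bp it ranked 562, and by width 9. Immediately to the right lay small peaks of 240 and 220 bp, which ranked 4843 and 6015. The largest total Pol II peak outside the platform lay in the leftmost cluster, from 135956411 to 135958470, with rank 16 and a width of 2060 bp.

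Ser5P, the form of Pol II around initiation, was split into 7 peaks over the platform. The rightmost of these, from 135973891 to 135975820, spanned 1930 bp and ranked 6 of 10644. Going left from it, 3 peaks of 520, 520 and 620 bp ranked 732, 778 and 587. The last 3, at the left end, were 90 to 180 bp wide and ranked from 3348 to 6970. Ser5P thus covered 88.3% of the platform, with its highest-ranked peak over the right part. Over all platforms 58.8% had a Ser5P peak, and 98.4% of those 1000 bp or wider. The leftmost cluster had a Ser5P peak of 2250 bp that ranked 12.

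Ser2P, the elongating form, had 2 peaks in the window and both lay at the platform. One, from 135974161 to 135975160, spanned 1000 bp and ranked 146 of 1811. The other lay at the opposite end, from 135971281 to 135971710, extended 80 bp beyond the left edge and ranked 575. No Ser2P peak was listed in the leftmost or middle cluster, where total Pol II ranked as high as 16 and 263. Of all platforms, 2.44% had a Ser2P peak, and of those 1000 bp or wider 23.3% (30 of 129).

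TBP, which nucleates the preinitiation complex, had 9 peaks on the platform that covered 45.1% of it. The peak of highest area there ran from 135974011 to 135974850, spanned 840 bp and ranked 280 of 15651. At the right end, from 135975551 to 135975820, a narrower peak of 270 bp ranked 367. By area per bp the order of these peaks turned, with rank 235 for the right-end peak and 970 for the longer one. The other 7 ranked between 3524 and 14742. A TBP peak of higher area than both, rank 69, lay in the leftmost cluster at 135957341 to 135957870.

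Taf1, the largest TFIID subunit, had no peak in the upper 10% of its list anywhere in the window. Its only peak on the platform was 70 bp wide, at 135974551 to 135974620 inside the longer TBP peak, and ranked 9632 of 13518. Its 3 peaks in the leftmost cluster ranked 2881, 8955 and 9952. These ranks depend on how peaks were split. When peaks were joined over gaps of up to 200 bp, the highest Taf1 peak of the window ranked 475. Over all platforms, 21.4% had a Taf1 peak, and 41.9% of those 1000 bp or wider. The Taf1 list came from 1 replicate.

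The peaks of highest area of TFIIA, TFIIB, TFIIE and TFIIH on the platform lay at a pair of points, and further TFIIB, TFIIE and TFIIH peaks were spread between and to the left of them. The first point was in the right part, where 9 lists overlapped within 20 bp at 135974401 to 135974420. These were total Pol II, Ser5P, Ser2P, TBP, TFIIA, TFIIB, TFIIE, TFIIH and ETS1. The second point was near the right end, where 8 lists overlapped at 135975611 to 135975630, within 190 bp of the edge of the platform. There CBP was present, and Ser2P and ETS1 were not.

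**Figure D2:**
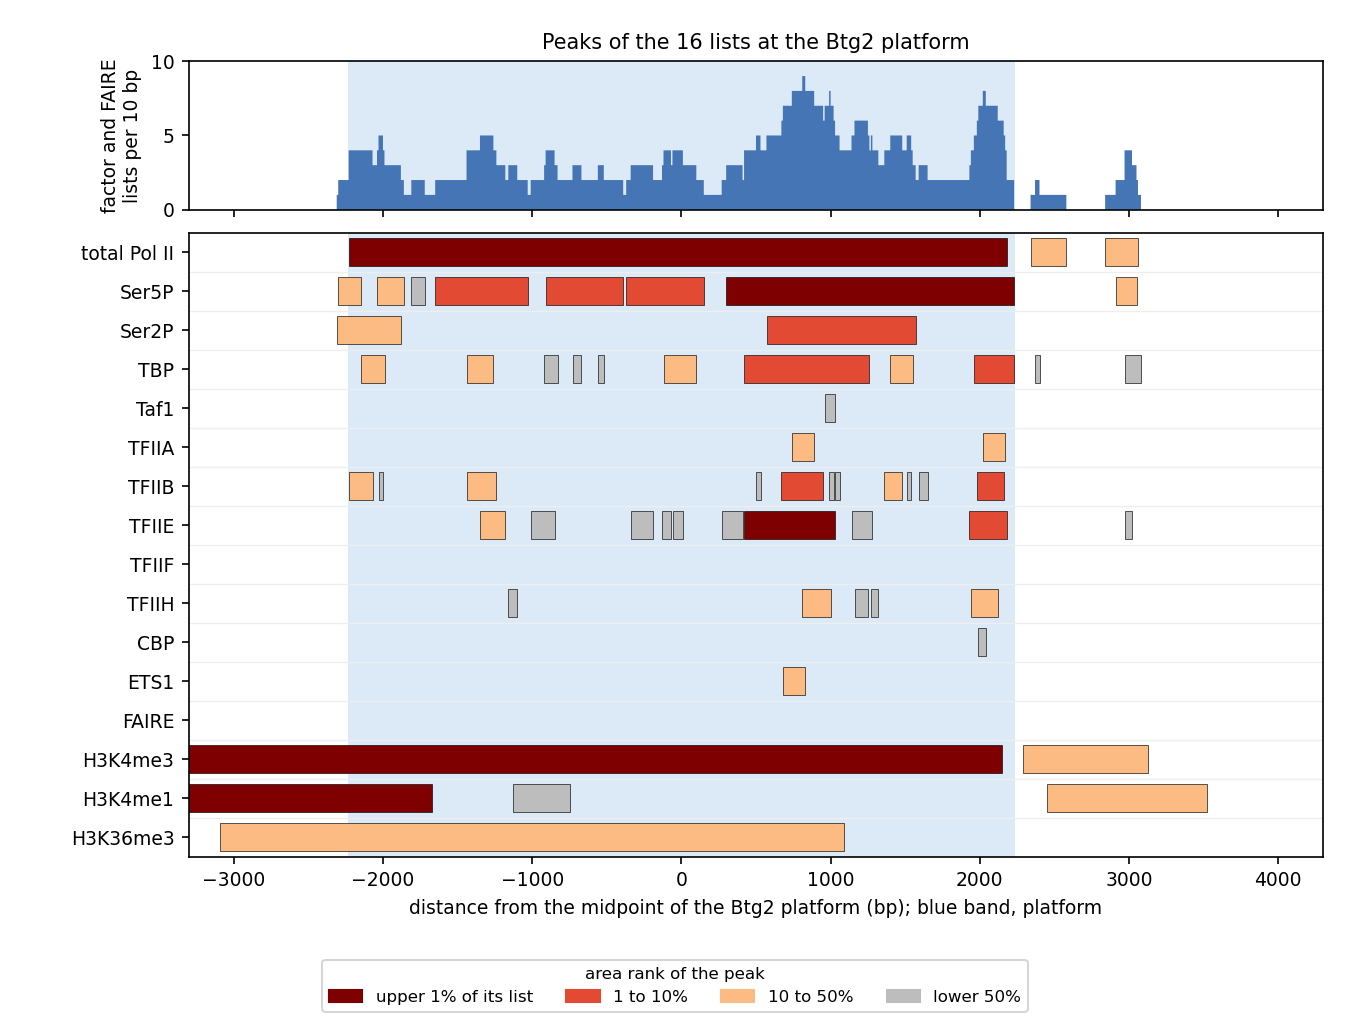
Peaks of the 16 lists at the Btg2 platform (blue band), by distance in bp from its midpoint. Each box is 1 peak coloured by area rank in its list, and the upper panel counts factor and FAIRE lists per 10 bp. The points with 9 and 8 lists lie in the right part, while H3K36me3 and most of the small Ser5P peaks lie towards the left.

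TFIIA, which steadies TBP on DNA, had 2 peaks of 150 bp at these points, at 135974331 to 135974480 and 135975611 to 135975760, with ranks 1760 and 2498 of 6588. Beside its highest peak of the window, the leftmost cluster had TFIIA peaks at 135957991 to 135958160 and 135959761 to 135959860, with ranks 1314 and 3412. TFIIB, which links TBP to Pol II and whose list came from 1 replicate, had 11 peaks on the platform. Its highest, from 135974261 to 135974540, ranked 285 of 10999, and that at the right end, from 135975571 to 135975750, ranked 935. Both overlapped the TFIIA peaks. Of the other 9, the highest lay in the left part, from 135972151 to 135972350, and ranked 1336. It overlapped a TBP peak of rank 3524 and a TFIIE peak of rank 3001. Another 5 were only 30 bp wide and ranked between 10093 and 10572. Over all platforms, 18.4% had a TFIIA and 52.6% a TFIIB peak, and of those 1000 bp or wider 45% and 92.2%.

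TFIIE, which brings in TFIIH, had 9 peaks on the platform. The highest, from 135974011 to 135974620, spanned 610 bp, had the same left edge as the longer TBP peak, and ranked 105 of 11678. The peak at the right end, from 135975521 to 135975770, ranked 463 by area and 119 by area per bp. The remaining 7 ranked from 3001 to 10647, with 6 to the left of these peaks and 1 between them. TFIIH, whose kinase phosphorylates serine 5, had 5 peaks, of which those at 135974401 to 135974590 and 135975531 to 135975710 ranked 1397 and 1750 of 8618. Its other 3 ranked from 6756 to 8000. A TFIIE peak was present at 61.6% of all platforms and a TFIIH peak at 28.4%. Of platforms 1000 bp or wider, 95.3% had a TFIIE and 72.1% a TFIIH peak.

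TFIIF, which accompanies Pol II into the complex, had no peak on the platform. Its list was the shortest of all with 1262 peaks, and 6.57% of platforms had one, or 12.4% of those 1000 bp or wider. In the window it had 2 peaks, both in the leftmost cluster, with ranks 631 and 1193.

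ETS1, a T-cell transcription factor, and the coactivator CBP each had 1 peak on the platform, at different points. The ETS1 peak, from 135974271 to 135974420, lay within the TFIIB peak of highest area on the platform and ranked 795 of 2359. It was the higher of the 2 ETS1 peaks of the window. The other one, rank 1006, was in the middle cluster at 135962081 to 135962220. CBP had a peak of 50 bp at the right end, from 135975581 to 135975630, with rank 4602 of 6372. By contrast, the CBP peak at 135963731 to 135964170 in the middle cluster ranked 15. In the leftmost cluster, CBP peaks at 135956461 to 135956590 and 135957671 to 135957740 ranked 1466 and 3426. Of all platforms, 9.27% had an ETS1 and 16.4% a CBP peak, and of those 1000 bp or wider 14.7% and 44.2%. The CBP list came from 1 replicate.

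FAIRE, the measure of open chromatin, had no peak on the platform, and its nearest one lay 7300 bp to the left. That peak, from 135963751 to 135964060, was inside the CBP peak of rank 15 and ranked 621 of 11176. The other 3 FAIRE peaks were in the leftmost cluster, at ranks 1224, 6341 and 6468. Of all platforms 33.3% had a FAIRE peak, and of those 1000 bp or wider 51.9% (67 of 129), so a wide platform without one was common. Unlike the other tracks, the FAIRE track had no background subtraction in its name.

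The 3 histone marks covered different stretches of the platform. H3K4me3, the mark of active promoters, covered 98.2% of it in a peak from 135969771 to 135975740, which spanned 5970 bp and ranked 18 of 28013. After a gap of 140 bp, a second H3K4me3 peak went on to 135976720 with rank 8381. H3K36me3, a mark of transcribed gene bodies, had its single peak of the window from 135970501 to 135974680. That peak covered 74.4% of the platform, ended 1140 bp before its right end and ranked 5573 of 49181. H3K4me1, frequent at enhancers and at promoter flanks, covered 21.1% of the platform. A peak of 7840 bp, from 135964081 to 135971920 and of rank 178 of 74607, reached 560 bp into its left end. Between that and a right flank peak starting at 135976041, the platform had just 1 H3K4me1 peak, of 380 bp and rank 56431. The marks were found at 75.9% (H3K4me3), 55.3% (H3K4me1) and 1.83% (H3K36me3) of all platforms. For those 1000 bp or wider the shares were 99.2%, 87.6% and 18.6%.

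The leftmost and middle clusters held 5 more platforms, and the right flank of the Btg2 platform held 2 of 240 bp each. All 7 were marked by H3K4me3. The widest of them, from 135956411 to 135958470, spanned 2060 bp, ranked 17 of 8649 by width and had peaks of 13 lists, against 14 at the Btg2 platform. It had FAIRE and TFIIF peaks and lacked Ser2P, ETS1 and H3K36me3, the reverse of the Btg2 platform for these 5 lists. The other 4 in these clusters measured 730, 1390, 500 and 690 bp.

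The general factors ranked lower at the Btg2 platform than in the leftmost cluster. The highest TFIIE peak ranked 105 at the platform and 2 in the leftmost cluster (135957261 to 135958170). For TFIIA the ranks were 1760 and 6 (135957401 to 135957800), for TFIIH 1397 and 8 (135957271 to 135957890), and for TFIIB 285 and 40 (135957331 to 135957840). Total Pol II and Ser5P went the other way, with ranks 8 and 6 at the platform and 16 and 12 in the leftmost cluster. By area per bp, however, the total Pol II order turned, with rank 562 at the platform and 145 in the leftmost cluster, and the area rank includes the width for which the window was chosen. Ser5P kept its order, with rank 63 at the platform and 108 for the peak of highest area in the leftmost cluster. Another Ser5P peak of that cluster, from 135959581 to 135960000, ranked 87 by area per bp. All 4 of these general factor peaks overlapped, within 130 bp at 135957401 to 135957530, together with total Pol II, Ser5P, TBP, Taf1 and FAIRE. With 1 list per target, none of these orders could be set against a replicate error.

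**Figure D3:**
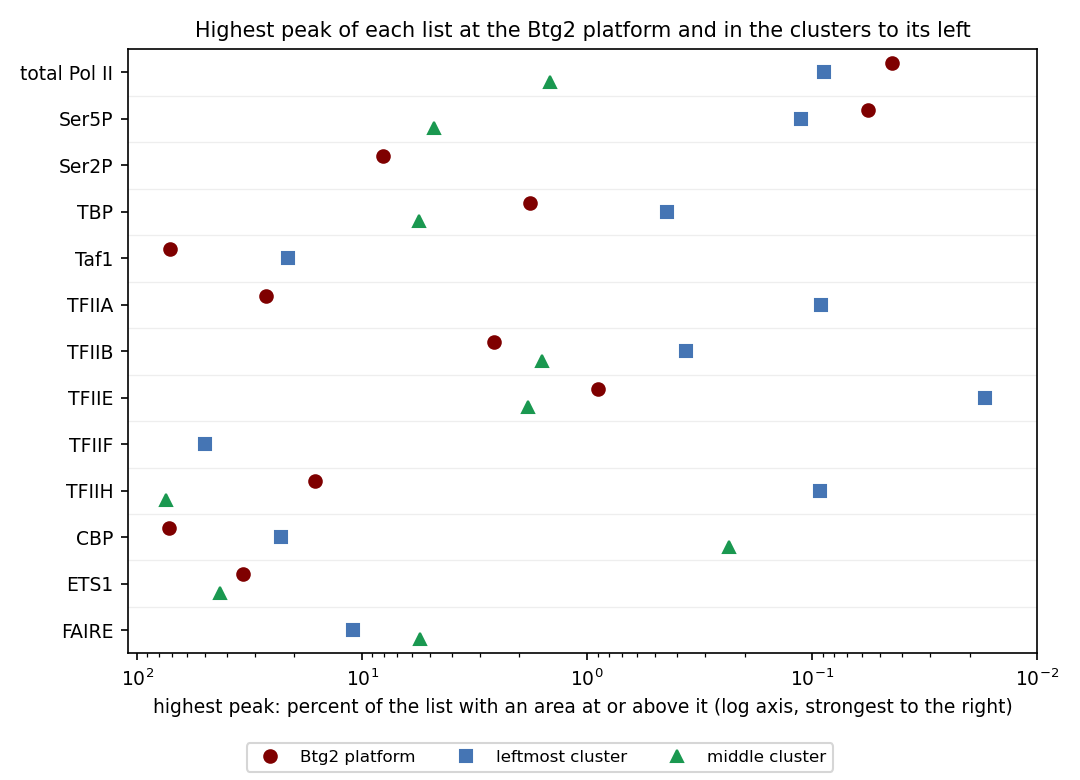
Highest peak of each factor or FAIRE list at the Btg2 platform (circles), in the leftmost cluster (squares) and in the middle cluster (triangles). The x axis is the percent of the list with an area at or above that peak, on a log axis with the strongest to the right. TFIIA, TFIIB, TFIIE, TFIIH and TBP peaks of the leftmost cluster stand to the right of those of the platform, and total Pol II and Ser5P peaks to the left of them. By area per bp, which is not drawn, the total Pol II order turns (rank 562 at the platform, 145 in the leftmost cluster).

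Farther left in the same cluster, TBP (135956421 to 135956700, rank 1342), TFIIB (135956401 to 135956700, rank 295), TFIIE (135956401 to 135956730, rank 228) and TFIIH (135956481 to 135956700, rank 209) overlapped at another point. The CBP peak of rank 1466 and the FAIRE peak of rank 6468 overlapped them there. On its right side, a total Pol II peak from 135959361 to 135960750 ranked 57, a Ser5P peak from 135959581 to 135960000 ranked 178 and a TFIIE peak from 135959681 to 135960140 ranked 187. The outermost total Pol II peak on the left, at 135955781 to 135955860, ranked 14514, and the outermost Ser5P peak on the right, at 135976501 to 135976640, ranked 5305. H3K4me1 reached farthest on both sides, with peaks starting at 135954621 (rank 6501) and ending at 135993700 (rank 5046). The outermost H3K4me3 peaks were that of rank 180 on the left, from 135955571 to 135959870, and one of rank 11922 on the right, from 135989781 to 135990430.

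The middle cluster held the CBP peak of highest area in the window. In it, 7 lists overlapped over 160 bp at 135963751 to 135963910, namely total Pol II, Ser5P, TBP, TFIIB, TFIIE, CBP and FAIRE, with no TFIIA or Taf1 peak in the cluster. As a percent of the list at or above it, its highest peak stood at 0.235% for CBP, 1.46% for total Pol II, 1.58% for TFIIB and 1.84% for TFIIE. H3K4me3 was weak here, with ranks from 17068 to 27982 in peaks that touched only this cluster. Of these, only the peak of rank 17068 reached the stretch of 7 lists, and it ended at 135963810. H3K4me1 was high, in a peak from 135960531 to 135964070 that ranked 656 by area and 26 by area per bp. Between this cluster and the Btg2 platform, the H3K4me1 peak of rank 178 left no gap wider than 10 bp. H3K4me1 was thus nearly unbroken from 135960531 to 135971920.

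Peaks from 14 lists were present at the Btg2 platform, all but TFIIF and FAIRE. Only 2 of the 8649 platforms (0.0231%) had as many, this one included, and none had more. The other was the widest of all, on chromosome 11 at 52086181 to 52092050. These 14 include total Pol II and TBP, which every platform has by definition, and the H3K4me3 mark. Width is also the value for which the window was chosen, so this place is given as description. The median was 6 lists over all platforms and 10 over the 129 platforms 1000 bp or wider. Wide platforms hold more peaks of any list, so the second group is the closer one to set beside Btg2. Btg2 still ranks 2 by width within it, so length is not matched. Of these 129 platforms, 2 (1.55%) had 14 lists, Btg2 included. Within it, TFIIB was at 92.2%, TFIIE at 95.3% and Ser5P at 98.4%, so their presence at Btg2 was usual. H3K36me3 (18.6%), ETS1 (14.7%) and Ser2P (23.3%) were the least frequent of the lists present at Btg2. All 5 of the widest platforms, however, had Ser2P and H3K36me3 peaks, though those on chromosome 11 are neighbours.

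**Figure D4:**
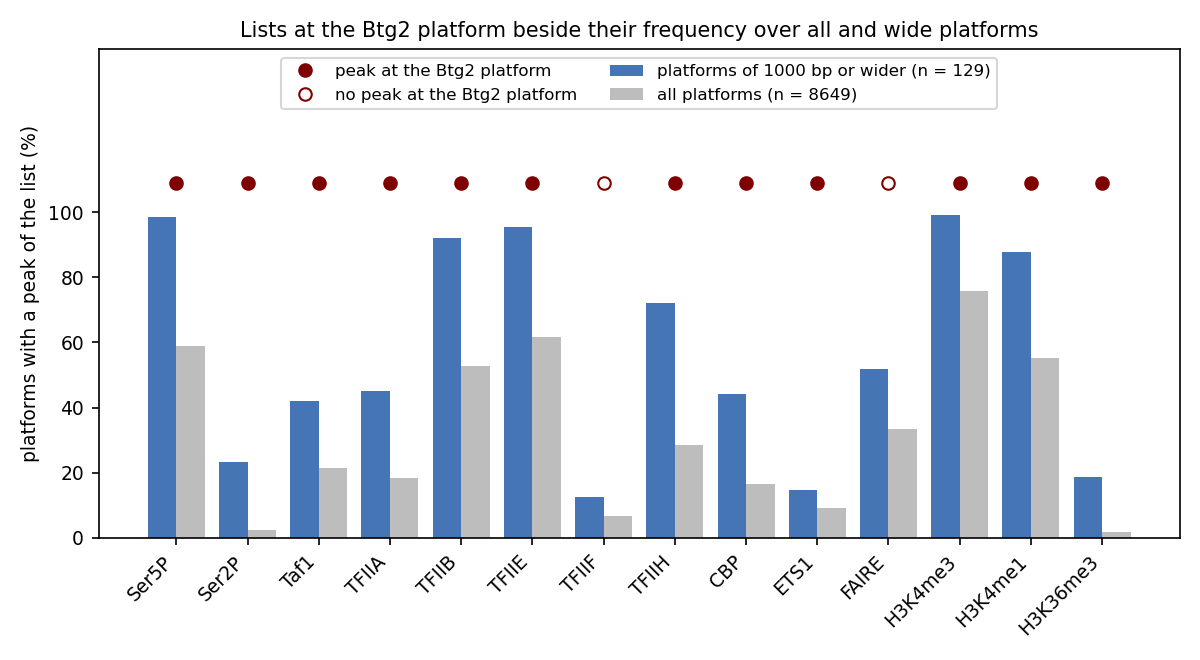
Share of platforms with a peak of each list, for platforms 1000 bp or wider (blue bars, n = 129) and all platforms (grey bars, n = 8649), with circles above for the Btg2 platform, filled where it had a peak. Ser2P, ETS1 and H3K36me3 were present at Btg2 and at under 25% of wide platforms. All 5 of the widest platforms had Ser2P and H3K36me3 peaks.

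The number of separate peaks at Btg2 was high even among wide platforms, but so was its length. Its 11 TFIIB, 9 TFIIE and 5 TFIIH peaks were each the largest number among the 129, against medians of 2, 2 and 1. Per kb of platform, TFIIB had 2.47 peaks at Btg2 and a median of 1.69, TFIIE 2.02 and 1.60, TFIIH 1.12 and 0.787, and TBP 2.02 and 1.90. The share of length covered was 25.8% at Btg2 against a median of 32.9% for TFIIB, 39.2% against 40.8% for TFIIE and 12.8% against 12.8% for TFIIH. H3K36me3 covered 74.4% of the Btg2 platform and as much of 13 of the 129, Btg2 included.

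Among the 5 widest platforms, Btg2 came second, after the one of 5870 bp and before the next of 3980 bp on chromosome 11 at 52092191 to 52096170. The fourth, at 52080671 to 52084640 on chromosome 11, measured 3970 bp, and the fifth, at 41491341 to 41495130 on chromosome 6, measured 3790 bp. Btg2 was the only one of the 5 with an ETS1 peak on the platform. With 20 kb added on either side, Btg2 had 2 ETS1 peaks, the higher of rank 795, and the stretch on chromosome 6 had 3, among them the peak of rank 1. Taf1 covered 1.57% of the Btg2 platform and up to 3.69% of the other platforms. Ser2P covered 30.3% of the Btg2 platform, against 79.7%, 18.8% and 97.2% of those on chromosome 11 and 16.1% of that on chromosome 6. H3K36me3 covered 74.4% at Btg2, over 90% of each platform on chromosome 11 and 10.6% of that on chromosome 6. With 20 kb added on either side, Ser2P covered 3.22% at Btg2, 39.0% to 57.6% on chromosome 11 and 8.18% on chromosome 6. The stretches on chromosome 11 overlap each other, so they are not independent.

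**Figure D5:**
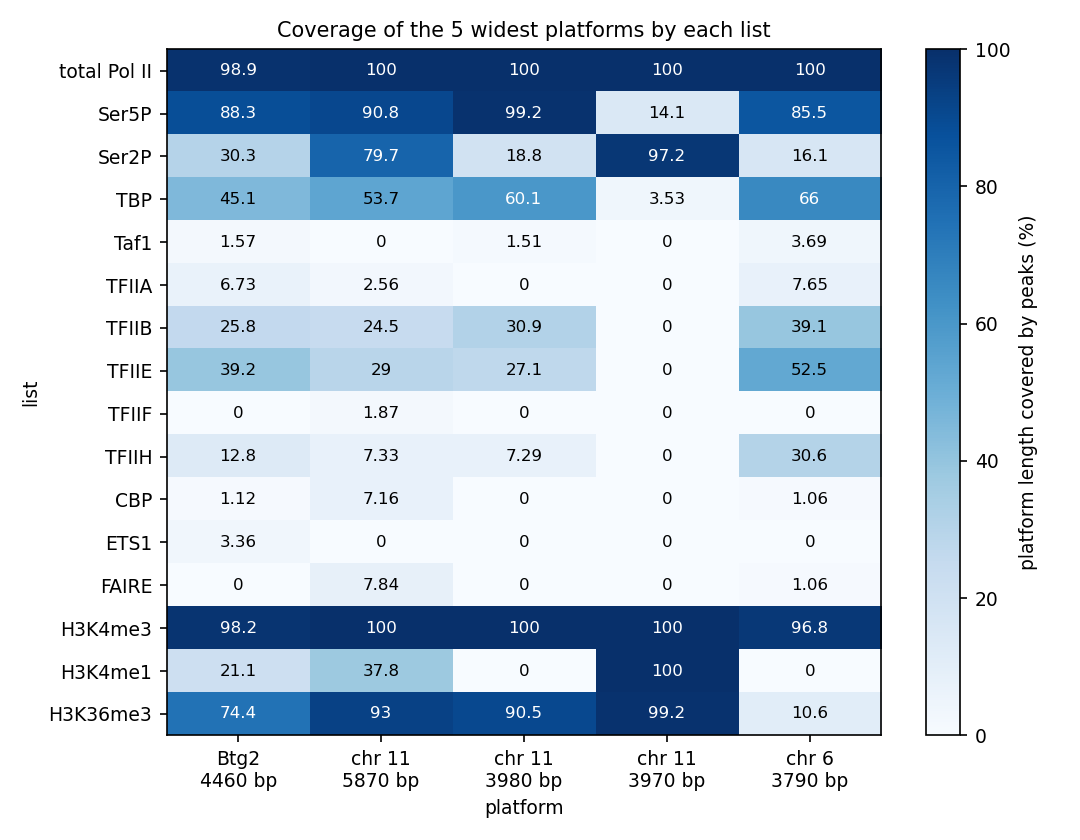
Share of platform length covered by peaks of each list, in percent, for Btg2 (first column) and the other 4 of the 5 widest platforms in order of width. Btg2 had 88.3% Ser5P and 74.4% H3K36me3, and was the only one with ETS1 on the platform itself.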

How the data were processed

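The 16 deposited peak lists give chromosome, start, end and area of each peak. The area is, per the names of the deposited files, that under the authors' signal track, and the track names record artefact removal, scaling and background subtraction for all but FAIRE. Per the submitters' processing notes the build was mm9. Peak ends fell on bins of 10 bp. Replicates had been merged for 13 lists, and CBP, Taf1 and TFIIB came from 1 replicate, per the file names. The sources used here name no aligner, peak caller or calling threshold. The 4 samples of RNA, input and immunoglobulin control were not analysed here.

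Peaks sharing at least 1 bp with the window were taken and ranked by area within their list. Named were the platform, the other platforms of the window, the 5 widest platforms and every factor and FAIRE peak of the window. Of lists with over 6 peaks only the 3 of highest area and the outermost were named. Of histone lists, the peak of highest area, that over the platform and the outermost were named. Further peaks at or beside the platform, and those of the middle cluster, were named after their values were seen. The window, lists and rules were chosen with earlier results of these data known. No mm9 annotation was used, so other BTG and TOB genes were not analysed here. The code was tested on simulated data. Python 3.11.15, numpy 2.4.6, pandas 2.3.3 and matplotlib 3.10.9 were used.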

Additional observations from a re-analysis of the deposited data

How the results depend on the processing

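The locus held 149 peaks as counted, 95 when only the 50% of peaks with the largest areas were kept, 62 with factor and FAIRE lists trimmed to equal length, and 62 within 5 kb of the platform. The width rank of the platform, 2, became 9 with total Pol II peaks alone, 10 with Ser5P and TBP peaks and 7 with peaks joined over 200 bp. The highest peak of the window was centred on the platform for 6 lists, and the area-weighted mean position for 2. Lists with a peak at the platform, 14, came to 12 in the upper 50% of each list, without Taf1 and CBP, and to 10 with lists of equal length, without Taf1, TFIIA, TFIIH and CBP. Leaving out the 3 lists from 1 replicate, a choice made after seeing the data, gave 11 of 13 lists. This was fixed in advance, because all 3 had a peak at the platform. The lower numbers of peaks and lists under a cut, trimming or a smaller window follow from removing peaks. The cause of the other shifts was not tested. Of 176 values of single lists under an alternative, 99 stayed within 1.5 times and 77 did not. No paired analysis was possible because each target had 1 list. Depth was unknown, so a missing peak cannot be told apart from one below the authors' threshold.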
